A study of Homo sapiens with 6 samples.

Results

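The genes described here are 9 genes that make, store, take up and break down noradrenaline and dopamine, out of 67060 genes in the count table: *DDC*, *DBH*, *GCH1*, *PTS*, *QDPR*, *SLC6A2*, *SLC18A1*, *MAOA* and *MAOB*. They were chosen by name for these roles, with earlier results of these data known. *TH*, the gene of the first enzyme, was left out because it was listed at 0. All 9 were measured in every library and passed the filter on low counts. Total RNA depleted of ribosomal RNA was sequenced from SH-SY5Y, a human neuroblastoma line of sympathetic origin that the labels call a neuronal progenitor. One group was infected with Ad CMV 3xFlag-Esrrg, an adenovirus that carries the mouse coding sequence of *Esrrg* with Flag tags behind the CMV promoter, and the control group with Ad CMV GFP, an adenovirus that carries green fluorescent protein. *Esrrg* encodes the orphan nuclear receptor ERRγ. RNA was taken from both groups after 24 h, and each group had 3 libraries, with the control libraries numbered 1, 3 and 4 in the labels and the others 2, 3 and 4. The design is limited to a single cell line, every library came from virus-infected cells, and the inserted sequence is of mouse. Nothing in the sources states that the libraries came from separate cultures, so the p-values measure the spread between these libraries, which may be technical.

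Noradrenaline is made from tyrosine. Tyrosine hydroxylase makes L-DOPA with tetrahydrobiopterin as its cofactor, aromatic L-amino acid decarboxylase (*DDC*) turns L-DOPA into dopamine, and dopamine β-hydroxylase (*DBH*) turns dopamine into noradrenaline inside vesicles. Vesicular monoamine transporters (*SLC18A1* encodes the first, known from endocrine cells) load the vesicles, the noradrenaline transporter (*SLC6A2*) takes the released transmitter up again, and the monoamine oxidases of the outer mitochondrial membrane (*MAOA*, *MAOB*) deaminate what is free in the cytosol. *GCH1*, *PTS* and *QDPR* make and regenerate tetrahydrobiopterin.

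Between 24969759 and 29700980 reads fell on genes in the Ad CMV GFP libraries, and between 26513620 and 40859666 in the Ad CMV 3xFlag-Esrrg libraries. *ESRRG* reads, which can include those from the mouse insert, numbered 2357, 2796 and 2876 with Ad CMV GFP and 15228, 25994 and 26497 with Ad CMV 3xFlag-Esrrg, a log2 fold change of 3.02. Ad CMV 3xFlag-Esrrg replicate 2 stood apart from the other libraries of its group. It had 570 *ESRRG* CPM (counts per 1000000 reads on the tested genes, scaled) where the others had 772 and 778, and 46.6% of its reads were assigned to no feature, where the others had 31.6% and 29.5% and the Ad CMV GFP libraries between 51.3% and 52.2%. Reads assigned to no feature are those that met no exon of the annotation used for counting, and can include reads in introns. Their shares differed between the groups and so moved with every difference given here. Within the groups the share varied mainly through Ad CMV 3xFlag-Esrrg replicate 2, so a fit with it as covariate leans on that library. With this share as a covariate, *DDC* (log2 fold change -2.50), *DBH* (-2.55), *SLC6A2* (-2.68) and *SLC18A1* (-2.82) were still called lower and *MAOB* (0.71) higher, and *GCH1* (-0.59) and *MAOA* (-0.75) were called lower as well.

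A gene was called higher or lower where edgeR's quasi-likelihood test gave a Benjamini-Hochberg adjusted p under 0.05 and the fold change was at least 1.5. Over all 24500 genes tested, 17.3% were called higher in the cells given the *Esrrg* virus, 16.8% lower, and 34.1% in either direction. The median log2 fold change of all tested genes was -0.10. With library size as the only scaling that median was -0.42, with 8.98% called higher and 30.9% lower, and the calls of the 5 genes named next held. Among the 9 genes, 4 were called lower (*DDC*, *DBH*, *SLC6A2* and *SLC18A1*), 1 was called higher (*MAOB*), 4 were not called, and their median log2 fold change was -0.55. For 6 of the 9 no library of one group lay within the CPM range of the other, against 58.1% of all tested genes. The genes that fell were both enzymes that turn L-DOPA into noradrenaline and both listed transporters, and none of the 3 cofactor enzymes was called. In these bulk samples, fewer cells that express a gene and less RNA per cell cannot be told apart.

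**Figure D1:**
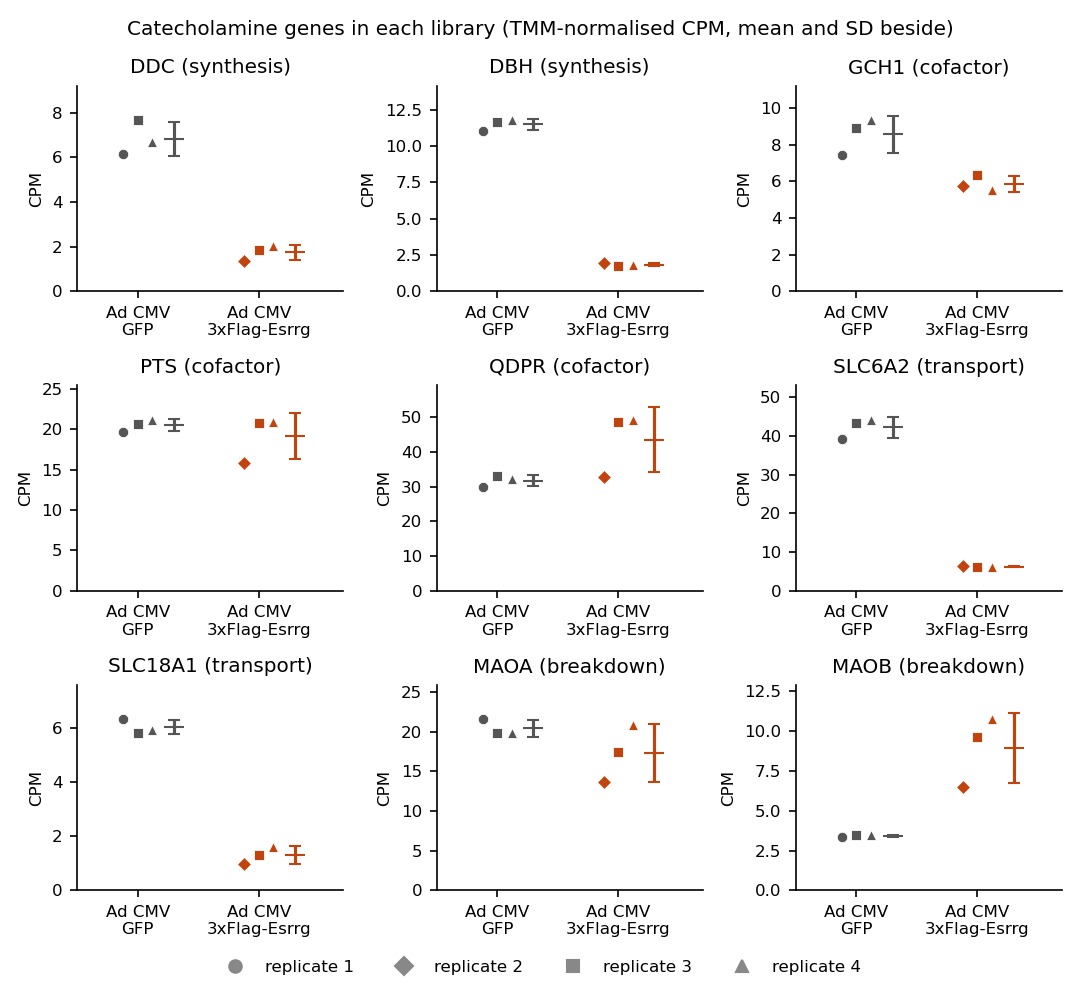
Level of each of the 9 genes in each library, in CPM on a linear axis that starts at 0 and has its own range for each gene, with 3 libraries of each virus, a symbol for each replicate number, and the group mean with its SD beside the points. *DDC*, *DBH*, *SLC6A2* and *SLC18A1* sit lower in all 3 Ad CMV 3xFlag-Esrrg libraries, *MAOB* sits higher, and *PTS*, *QDPR* and *MAOA* overlap between the groups.

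*DBH*, the enzyme that sets a noradrenergic apart from a dopaminergic cell (chromosome 9, 133636363 to 133659329, plus strand, GRCh38), was at 11.0, 11.7 and 11.8 CPM with Ad CMV GFP and at 1.94, 1.72 and 1.85 CPM with Ad CMV 3xFlag-Esrrg. Every Ad CMV 3xFlag-Esrrg library was below every Ad CMV GFP library, and within each group the libraries lay close together. The group means were 11.5 ± 0.405 and 1.84 ± 0.111 CPM (SD, n = 3), 6.25-fold lower with Ad CMV 3xFlag-Esrrg. The edgeR log2 fold change was -2.64 (SE 0.14, adjusted p = 1.3e-06). The raw counts behind these values were 311, 361 and 390 against 52, 58 and 63.

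*DDC*, the decarboxylase that dopamine and serotonin synthesis share (chromosome 7, 50458436 to 50565405, minus strand), was at 6.14, 7.66 and 6.68 CPM with Ad CMV GFP and at 1.38, 1.84 and 2.03 CPM with Ad CMV 3xFlag-Esrrg. These groups did not overlap either. The means were 6.83 ± 0.774 and 1.75 ± 0.330 CPM (SD, n = 3), 3.90-fold lower, with an edgeR log2 fold change of -1.95 (SE 0.19, adjusted p = 4.5e-05). Its counts, 173, 237 and 221 against 37, 62 and 69, were among the lowest of the 9 genes, and the 95% Poisson interval of the smallest, 26.1 to 51.0 counts, lay below that of the smallest Ad CMV GFP count, 148 to 201. Small parts of the exons of *DBH* (4.30%) and *DDC* (3.70%) overlap a gene on the opposite strand. The kit kept strand, but the strand setting of the read counting is not given in the sources used here.

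The promoters of these enzymes are shown because ERRγ is a transcription factor that binds DNA, with a known preference for the element AAGGTCA, and because both genes fell. The 250 bases before the RefSeq start site (GRCh38.p14) are printed 5′ to 3′ on the strand of the gene, with matches on either strand in capitals, to AAGGTCA, to the core of the GC box, GGGCGG, or to the core of the cyclic AMP response element, TGACG. *DBH* is at chr9:133636113-133636362, and *DDC* at chr7:50565406-50565655, upstream of the more distal of its RefSeq starts. Which *DDC* start was used in these cells was not tested.
DBH: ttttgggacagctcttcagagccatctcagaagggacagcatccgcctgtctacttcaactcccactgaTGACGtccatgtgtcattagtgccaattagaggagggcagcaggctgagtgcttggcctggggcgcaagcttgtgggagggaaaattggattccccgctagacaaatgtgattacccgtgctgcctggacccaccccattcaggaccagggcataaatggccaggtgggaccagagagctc
DDC: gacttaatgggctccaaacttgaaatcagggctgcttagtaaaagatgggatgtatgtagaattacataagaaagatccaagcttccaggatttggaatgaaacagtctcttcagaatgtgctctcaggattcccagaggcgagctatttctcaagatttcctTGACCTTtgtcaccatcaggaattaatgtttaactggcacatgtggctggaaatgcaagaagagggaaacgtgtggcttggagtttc

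The window of *DBH* held 1 TGACG, which 21.2% of all 35116 RefSeq promoter windows of that length held on either strand, and no AAGGTCA. The *DDC* window held 1 AAGGTCA on its reverse strand, with its first base 87 bases before the start. That match is found in 3.44% of all windows. The longer form TNAAGGTCA, found in 0.854% of all windows, was in none of the windows of these genes, and the window before the other RefSeq start of *DDC* held neither AAGGTCA nor TGACG. The E-box CANNTG, not marked above, lay 174, 79 and 20 bases before the start of *DBH*. Before the more distal start of *DDC* it lay at 50 and 48 bases, where the matches overlap. The window before the other *DDC* start held none, and 61.8% of all windows held at least 1. A match of letters is not evidence of binding, and binding was not measured here.

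The rate-limiting enzyme before them, tyrosine hydroxylase, could not be followed. *TH* was listed at 0 in all 6 libraries, as were 3070 of the 19938 protein-coding genes found in the annotation. None of its 31-base words was found on the 261 alternate contigs of the genome, where a read can lose its unique alignment. Other sequences were not searched, and the cause of the 0 of *TH* was not tested. *PNMT*, which turns noradrenaline into adrenaline, had between 8 and 24 counts in a library. Its log2 fold change was 0.90 (edgeR's adjusted p = 0.052), so it was not called.

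*SLC6A2*, the noradrenaline transporter of the plasma membrane (chromosome 16, 55655988 to 55707645, plus strand), had the largest fall of the 9 genes. It was at 39.1, 43.5 and 44.2 CPM with Ad CMV GFP and at 6.55, 6.24 and 6.10 CPM with Ad CMV 3xFlag-Esrrg. The groups did not overlap, and the spread within each was small beside the distance between them. The means were 42.3 ± 2.74 and 6.30 ± 0.226 CPM (SD, n = 3), 6.71-fold lower, with an edgeR log2 fold change of -2.75 (SE 0.10, adjusted p = 2.1e-07). Counts were 1103, 1344 and 1463 against 175, 210 and 208, so this fall rests on more reads than those of the enzymes. Of its exon bases, 28.6% are shared on the same strand with an annotated transcript of unclear status (ENSG00000278928), whose own counts were 254, 274 and 352 with Ad CMV GFP and 23, 28 and 39 with Ad CMV 3xFlag-Esrrg. Reads on the shared bases may have been left out as ambiguous or given to either gene.

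*SLC18A1*, the vesicular monoamine transporter known from endocrine cells (chromosome 8, 20144855 to 20183206, minus strand), was at 6.31, 5.82 and 5.92 CPM with Ad CMV GFP and at 0.973, 1.31 and 1.61 CPM with Ad CMV 3xFlag-Esrrg. The groups did not overlap, and the Ad CMV 3xFlag-Esrrg libraries differed more among themselves than the controls. The means were 6.02 ± 0.261 and 1.30 ± 0.321 CPM (SD, n = 3), 4.64-fold lower, with an edgeR log2 fold change of -2.19 (SE 0.20, adjusted p = 3.3e-05). The counts with Ad CMV 3xFlag-Esrrg were 26, 44 and 55, the lowest of the 9 genes. The neuronal vesicular transporter *SLC18A2* had only 6 to 13 counts in a library and was not tested. Of its exon bases, 56.4% overlap a gene on the opposite strand. As the strand setting of the counting is not given, reads there may have been left out as ambiguous. The dopamine transporter *SLC6A3* was listed at 0 in all 6 libraries, but 90.3% of its 31-base words are also on alternate contigs, so that 0 cannot be read as absence.

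*SLC6A2* and *DBH* had nearly parallel profiles. Of the 16102 tested genes that averaged 50 counts or more, *DBH* was the gene whose log2 CPM over the 6 libraries, centred on its mean, lay nearest to that of *SLC6A2*, at a root mean square difference of 0.080. The next were *BEGAIN* at 0.098 and *C11orf96* at 0.13. *DDC* and *SLC18A1* lay 0.18 from each other and 0.45 and 0.37 from *SLC6A2*. These distances describe 6 libraries that share one contrast, and carry no test.

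The cofactor enzymes had smaller fold changes than the genes above. *GCH1*, GTP cyclohydrolase, the entry step of tetrahydrobiopterin synthesis (chromosome 14, 54842008 to 54902826), was at 7.45, 8.89 and 9.34 CPM with Ad CMV GFP and at 5.72, 6.36 and 5.52 CPM with Ad CMV 3xFlag-Esrrg. The groups did not overlap, but the highest Ad CMV 3xFlag-Esrrg library came close to the lowest control. The log2 fold change was -0.55 (SE 0.14, edgeR's adjusted p = 0.0084), short of 1.5-fold, though its 95% interval, -0.85 to -0.24, included that size. It passed that size and the test under 6 of 16 alternatives, with a log2 fold change of -0.59 with the share of reads on no feature as a covariate (edgeR's adjusted p = 0.039), of -0.87 when library size was the only scaling and of -0.63 and -0.60 without Ad CMV GFP replicate 1 or Ad CMV 3xFlag-Esrrg replicate 3.

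*PTS*, 6-pyruvoyltetrahydropterin synthase, the next step (chromosome 11, 112226367 to 112269955), was at 19.7, 20.7 and 21.2 CPM with Ad CMV GFP and at 15.9, 20.8 and 20.8 CPM with Ad CMV 3xFlag-Esrrg. Ad CMV 3xFlag-Esrrg replicate 2 was low and the others lay within the control range. The log2 fold change was -0.10 (SE 0.12, edgeR's adjusted p = 0.53), its 95% interval ran from -0.37 to 0.17, and it was 0.13 without replicate 2. With the share of reads on no feature as a covariate it was -0.49 (edgeR's adjusted p = 0.0081), below 1.5-fold. The interval of the reported fit leaves room for changes of either sign below 1.5-fold.

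*QDPR*, dihydropteridine reductase, which regenerates the cofactor after use (chromosome 4, 17460261 to 17512206), was at 29.9, 33.1 and 32.1 CPM with Ad CMV GFP and at 32.8, 48.5 and 49.2 CPM with Ad CMV 3xFlag-Esrrg. Replicates 3 and 4 were above every control and replicate 2 was among them. The log2 fold change was 0.46 (SE 0.15, edgeR's adjusted p = 0.024), below 1.5-fold, though its 95% interval, 0.14 to 0.78, included that size. Without replicate 2 it was 0.73 and called higher. With the share of reads on no feature as a covariate it was -0.13. Within the groups that share varied mainly through Ad CMV 3xFlag-Esrrg replicate 2, so this setting leans on that library.

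Of the breakdown enzymes, *MAOB* was called higher and *MAOA* was not called. *MAOA*, the form with a preference for serotonin and noradrenaline (chromosome X, 43654907 to 43746817, plus strand), was at 21.6, 19.9 and 19.8 CPM with Ad CMV GFP and at 13.7, 17.4 and 20.9 CPM with Ad CMV 3xFlag-Esrrg. The groups overlapped, and the Ad CMV 3xFlag-Esrrg libraries spread widely. The log2 fold change was -0.23 (SE 0.14, edgeR's adjusted p = 0.21, 95% interval -0.55 to 0.086). It was 0.019 without Ad CMV 3xFlag-Esrrg replicate 2, and -0.75 and called lower with the share of reads on no feature as a covariate.

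*MAOB*, the form with a preference for phenylethylamine and a drug target in Parkinson's disease (chromosome X, 43766610 to 43882450, minus strand), was at 3.37, 3.46 and 3.44 CPM with Ad CMV GFP and at 6.51, 9.63 and 10.7 CPM with Ad CMV 3xFlag-Esrrg. Every Ad CMV 3xFlag-Esrrg library was above every control, and replicate 2 was the lowest of them. The means were 3.42 ± 0.048 and 8.96 ± 2.19 CPM (SD, n = 3), 2.62-fold higher, with an edgeR log2 fold change of 1.39 (SE 0.19, adjusted p = 2.5e-04). The counts rose from 95, 107 and 114 to 174, 324 and 366. The log2 fold change was 0.71 with the share of reads on no feature as a covariate and 1.68 without replicate 2, called higher in both. The genes with the nearest profiles were *HECTD3* (root mean square difference of log2 CPM 0.034), *URM1* (0.035) and *CDK4* (0.037), all of which were called higher.

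*MAOA* and *MAOB* lie side by side, end to end, with 19792 bases between their ends. Their start regions are shown because *MAOB* was called and its neighbour was not, printed as above with the same capitals. *MAOA* is at chrX:43656049-43656298, before a RefSeq start that lies inside the gene span given above, and *MAOB* at chrX:43882451-43882700.
MAOA: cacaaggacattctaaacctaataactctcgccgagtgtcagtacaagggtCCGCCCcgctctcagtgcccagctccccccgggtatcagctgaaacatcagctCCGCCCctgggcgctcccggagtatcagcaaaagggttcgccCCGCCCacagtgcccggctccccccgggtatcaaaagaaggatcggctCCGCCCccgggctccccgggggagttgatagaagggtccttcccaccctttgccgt
MAOB: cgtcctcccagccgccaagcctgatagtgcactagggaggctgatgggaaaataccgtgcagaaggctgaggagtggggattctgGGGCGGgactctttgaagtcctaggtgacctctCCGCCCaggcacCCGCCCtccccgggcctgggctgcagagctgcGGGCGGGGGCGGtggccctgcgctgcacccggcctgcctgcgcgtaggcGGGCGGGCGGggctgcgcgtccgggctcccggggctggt

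The window of *MAOA* held 4 GGGCGG matches, all on the reverse strand, and that of *MAOB* held 7, on both strands, of which the pair nearest the start overlaps. The GC content of the windows was 63.2% and 72.0%. GGGCGG was found in 42.6% of all promoter windows. Neither window held AAGGTCA or TGACG.

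Ratios within a library do not depend on how libraries were scaled. Per exon length, *MAOB* to *MAOA* was 0.701, 0.783 and 0.781 with Ad CMV GFP and 2.14, 2.48 and 2.31 with Ad CMV 3xFlag-Esrrg, 3.06-fold higher, and replicate 2 was close to the others on this measure. *MAOA* was the higher of the pair per exon length in every control and *MAOB* in every Ad CMV 3xFlag-Esrrg library. That order rests on the exon lengths used, 13.0 kilobases for *MAOA* and 2.90 for *MAOB*. In raw reads *MAOA* was the higher in all 6 libraries, at *MAOB* to *MAOA* ratios of 0.156 to 0.174 in the controls and 0.475 to 0.552 in the others. *QDPR* to *GCH1* was 2.84, 2.63 and 2.42 in the controls and 4.05, 5.39 and 6.30 in the others. *DBH* to *DDC* was 2.02, 1.71 and 1.98 in the controls and 1.58, 1.05 and 1.03 in the Ad CMV 3xFlag-Esrrg libraries, a log2 difference of -0.67. *PTS* to *GCH1* had a log2 difference of 0.43. For these 4 ratios the groups did not overlap, and the exact two-sided permutation test gave p = 0.1, the smallest that 3 libraries against 3 allow, and 0.125 after adjustment over the 5 ratios tested. *SLC6A2* to *SLC18A1* had a log2 difference of -0.50 with overlapping groups (exact permutation p = 0.2, adjusted 0.2). None of the 5 could pass the threshold in this design.

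Per kilobase of exon, the order of levels among the 9 genes differed between the groups. With Ad CMV GFP the mean levels ran from *QDPR* (7.65 CPM per kilobase) and *PTS* (6.56) through *SLC6A2* (5.25), *DBH* (4.19), *GCH1* (2.93), *DDC* (2.21), *MAOA* (1.57) and *SLC18A1* (1.54) to *MAOB* (1.18). Only *MAOA* and *SLC18A1*, of neighbours in that order, overlapped in their libraries. With Ad CMV 3xFlag-Esrrg, *QDPR* (10.5 CPM per kilobase) and *PTS* (6.12) were still at the top. *MAOB* (3.09) came next, followed by *GCH1* (2.01) and *MAOA* (1.33). The lowest places went to *SLC6A2* (0.783), *DBH* (0.670), *DDC* (0.568) and *SLC18A1* (0.332), and *DBH* and *DDC* overlapped. *MAOB* thus moved from the last place to the third, and *SLC6A2* from the third to the sixth. The exon length is that of all annotated exons of a gene joined, which is longer than one transcript for a gene such as *MAOA*. For *SLC6A2*, 28.6% of that length is shared with another gene, and reads there may not have been counted. Its levels per kilobase, and so its places, may be understated.

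**Figure D2:**
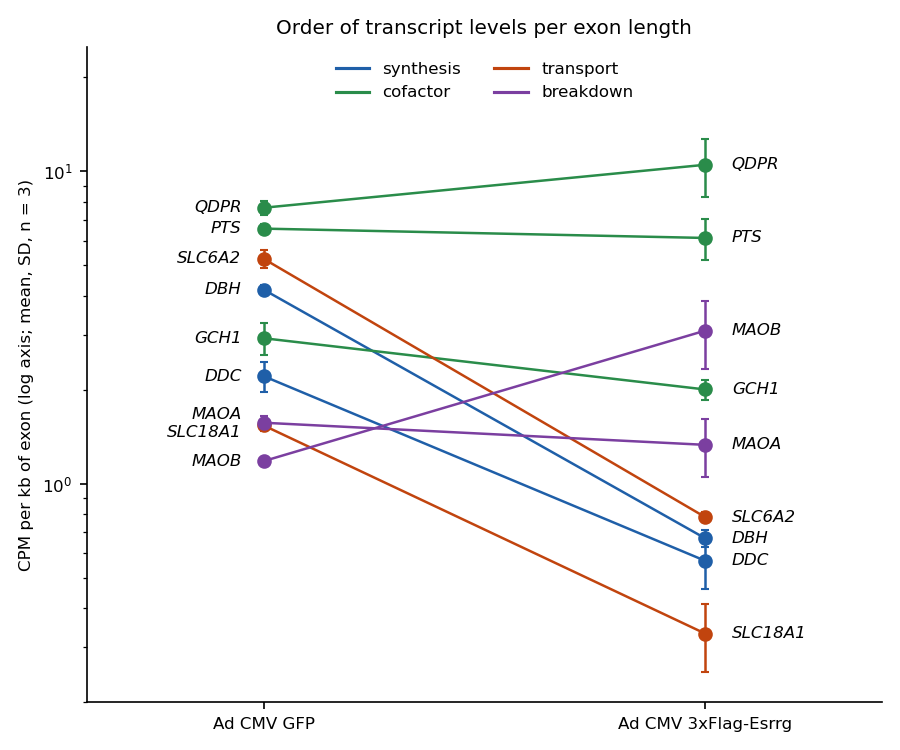
Level of each gene per kilobase of exon, in CPM per kilobase on a log axis, for Ad CMV GFP on the left and Ad CMV 3xFlag-Esrrg on the right. Points are group means with SD bars (n = 3), joined by a line for each gene and coloured by role. *QDPR* and *PTS* stay on top, *MAOB* rises from 1.18 to 3.09, and *SLC6A2*, *DBH*, *DDC* and *SLC18A1* end below 1 CPM per kilobase on the exon lengths used.

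A further 27 genes of the pathway were taken for their roles. Of these, 20 were tested, 11 were called higher, 1 was called lower and 8 were not called, with a median log2 fold change of 0.71. The shares over all tested genes were 17.3% and 16.8%, and these also stand behind the counts by role, which are small. Among enzymes and helpers of synthesis, 3 of 6 tested genes were called higher and 1 lower. The rises included *PDXK* (log2 fold change 0.71), a kinase of vitamin B6, from which the cofactor of DDC is made, and *SLC31A1* (0.92), the copper importer. The fall was of *ATP7A* (-0.90), which delivers copper to secretory enzymes such as DBH, and was at -0.43 and not called after GC and length correction. Of the cofactor genes, 2 of 5 were called higher, *SPR* (1.07), sepiapterin reductase of tetrahydrobiopterin synthesis, and *PCBD1* (0.71), which recycles the cofactor. Of the transport genes, 2 of 4 were called higher, *SLC7A5* (1.83) and *SLC3A2* (1.23), the subunits of the amino acid transporter that brings in L-DOPA and its precursors. With library size as the only scaling, *PDXK* (0.39) and *PCBD1* (0.37) were no longer called, nor were they after GC and length correction (0.42 and 0.54) or among protein-coding genes alone (0.58 and 0.57).

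Of the breakdown genes, 4 of 5 were called higher. These included *AKR1B1* (log2 fold change 1.31), *AKR1A1* (1.06) and *ALDH2* (0.67), which reduce or oxidise the aldehydes that monoamine oxidases form. *ALDH2* was not called with library size as the only scaling (0.33), among protein-coding genes alone (0.53) or without Ad CMV 3xFlag-Esrrg replicate 4 (0.53). The 7 other tested genes that were not called had log2 fold changes between -0.88 and 0.70 and edgeR adjusted p-values from 0.068 to 0.97. The untested genes, beside *TH*, *SLC18A2* and *SLC6A3*, were *SLC22A2* and *SLC22A3*, listed at 0 in every library, *ALDH1A1* with at most 3 counts, and *SULT1A3* with 3 to 10 counts, 70.7% of whose exon bases are shared with another gene. With the share of reads on no feature as a covariate, 5 of these pathway genes were called higher in place of 11. The calls of *SLC31A1* (0.47), *PDXK* (0.40), *SPR* (0.46), *PCBD1* (0.10), *AKR1B1* (0.47) and *AKR1A1* (0.48) were lost, *ALDH2* turned to -0.027, and *RNLS*, an oxidase known as renalase, was added (1.30).

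**Figure D3:**
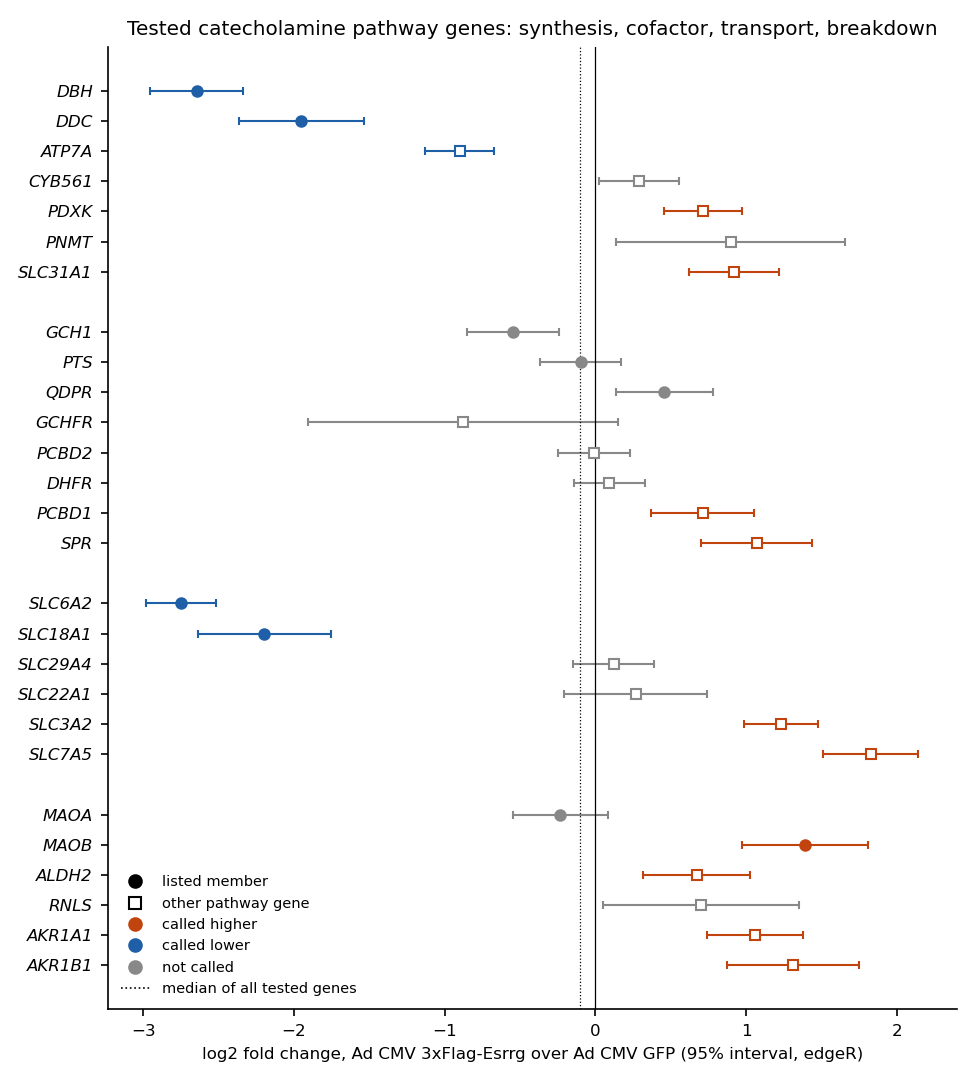
Log2 fold change with its 95% interval from edgeR for the 9 genes (circles) and 18 other tested pathway genes (squares), grouped into synthesis, cofactor, transport and breakdown, with a dotted line at the median of all tested genes. The 4 genes called lower among the 9 lie between -2.75 and -1.95, below *ATP7A* at -0.90, and the genes called higher run from 0.67 to 1.83.

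The cell type was checked against markers. Over all tested genes, 17.3% were called higher and 16.8% lower, and these shares stand behind the small marker counts. Of 11 noradrenergic neuroblast markers, 10 were tested, 2 were called higher (*PHOX2A*, *HAND1*) and 3 lower (*GATA2* and *TFAP2B* among them), and *CHGA* was listed at 0 with 90.3% of its words on alternate contigs. *PHOX2A*, a homeodomain factor of noradrenergic cells, went from a mean of 52.7 to 92.4 CPM. *GATA2* went from 63.4 to 29.9 CPM and *TFAP2B* from 68.5 to 33.7 CPM. The summed CPM of the list was 789 to 846 with Ad CMV GFP and 584 to 769 with Ad CMV 3xFlag-Esrrg. That sum is dominated by the most abundant genes of the list. The median log2 fold change of its tested genes was -0.26, with calls in both directions. Its part in the fall of the 4 genes above was not tested.

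Of 8 dopaminergic markers none was tested, 5 were at 0 in every library and no count exceeded 15. Serotonergic markers had 3 of 4 tested and 1 lower (*FEV*), at a summed 2.94 to 4.02 CPM in the controls and 1.63 to 2.06 CPM with Ad CMV 3xFlag-Esrrg. Cholinergic markers had 2 of 4 tested and 1 higher (*ACHE*), at 5.32 to 6.40 and 7.33 to 9.39 CPM. The 8 mesenchymal markers, of the other state that neuroblastoma cells can take, had *FOSL2* higher and *YAP1* lower, at 5101 to 5372 and 5487 to 6331 CPM. These sums are dominated by the most abundant genes, and the median log2 fold change of the list was 0.11. The 4 Schwann cell markers had 1 called lower, at 6.16 to 6.95 and 4.28 to 5.24 CPM. These counts are small, and 34.1% of all tested genes were called in either direction. The part of these lists in the results was not tested.

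**Figure D4:**
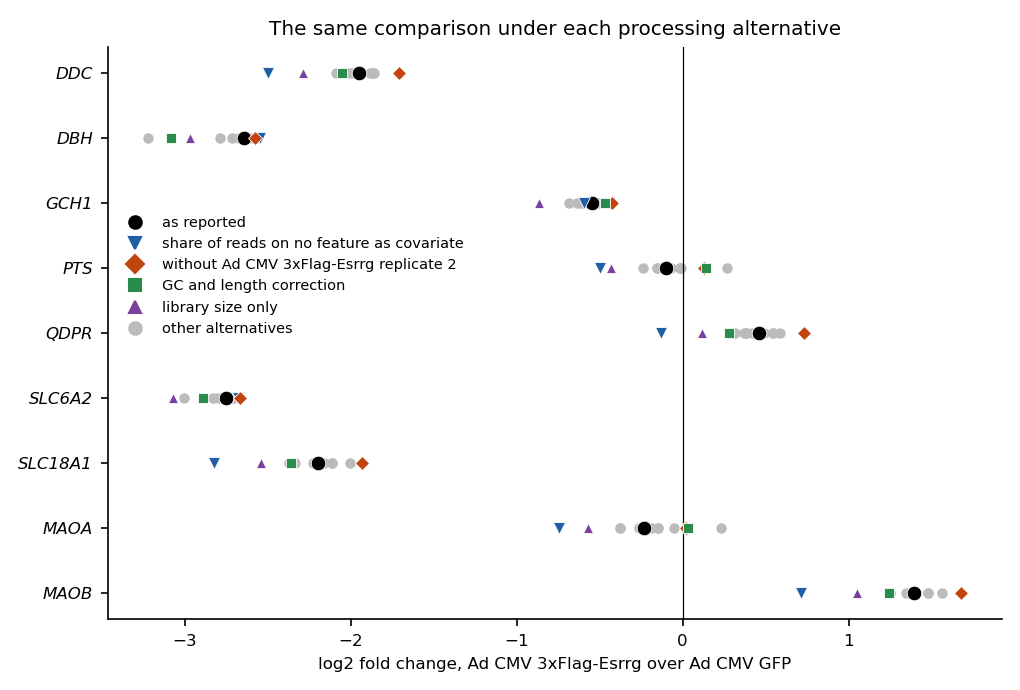
Log2 fold change of each of the 9 genes under the reported fit (black) and each of 16 alternatives, with some of them picked out in colour. *DDC*, *DBH*, *SLC6A2* and *SLC18A1* stay left of -1.71 throughout, *MAOB* stays between 0.71 and 1.68, and *PTS*, *QDPR* and *MAOA* lie on both sides of 0.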

How the data were processed

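RNA of 6 SH-SY5Y libraries, 3 a group, was deposited as raw counts of reads per gene. The submitters' processing notes name CASAVA, Trim Galore 0.6.7, STAR 2.7.9a, HTSeq 0.11.3, DESeq2 and GRCh38, so these counts were made by the authors without normalization. The annotation release and the strand setting are not given in the sources used here. Positions and exon lengths came from GENCODE 44, which holds 90.2% of the 67060 identifiers, and those outside it took 0.153% of the counts. HTSeq's rows of unassigned reads stayed out of library sizes and tests.

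Counts were fitted with edgeR 4.0.16 (R 4.3.3; filterByExpr, TMM scaling, quasi-likelihood F test, no covariate, all 6 libraries), after a check on simulated counts. CPM are on TMM-scaled library sizes. Alternatives were DESeq2 1.42.0, other scalings, filters and fold cutoffs, protein-coding genes alone, GC and length correction, a covariate, a replicate block and each library left out. Ratios used exact permutation (SciPy 1.17.1). Promoter windows came from RefSeq, which held 7 entries for 6 of the 9 genes, none for *GCH1*, *SLC6A2* and *SLC18A1*.

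The genes, lists and motifs were chosen with earlier results of these data known. Named were the 9 genes, the pathway list, the cell type markers, *ESRRG* and the 3 nearest profiles to the gene with the largest rise and to that with the largest fall. Some genes of these lists stay in the counts but are not reported here by name. The smallest library had 24969759 reads on genes, and Poisson intervals cover counting error only.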

Additional observations from a re-analysis of the deposited data

Results flagged for a closer look

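Ambiguous reads and reads that aligned to several places, which no comparison uses, were more frequent in every Ad CMV 3xFlag-Esrrg library than in any Ad CMV GFP library. The share of reads that were ambiguous between genes was 5.69% in Ad CMV 3xFlag-Esrrg replicate 2, 9.84% in replicate 3 and 9.79% in replicate 4, and at most 4.87% in the controls. The share of reads that aligned to several places was 9.33%, 12.7% and 13.0% in the same libraries, and at most 7.41% in the controls. For *SLC6A2*, which shares exon bases with another gene, these shares bear on which reads were counted, and their part in its fall was not tested.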

How the results depend on the processing

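*DDC*, *DBH*, *SLC6A2*, *SLC18A1* and *MAOB* kept their direction and call under all 16 alternatives, with log2 fold changes of -2.50 to -1.71, -3.22 to -2.55, -3.07 to -2.67, -2.82 to -1.93 and 0.71 to 1.68 and a highest adjusted p of 0.010 (*MAOB*, edgeR or DESeq2). Of the 9 genes, 2 were called higher, in place of 1, with no fold cutoff, with the replicate block and without Ad CMV 3xFlag-Esrrg replicate 2 (1 to 2 over the 6 left-out libraries), where *QDPR* was the gene added. Between 4 and 6 were called lower. Of the pathway genes, 6 were called higher with a 2-fold cutoff and 5 with the covariate, in place of 11 (8 with library size only). For those called lower, in place of 1, the counts were 0 with a 2-fold cutoff, 0 with GC and length correction, 2 with the replicate block and 2 without Ad CMV 3xFlag-Esrrg replicate 2 (1 to 2 over the left-out libraries). Directions turned for *PTS* (0.14 with GC and length correction, 0.27 with the block added to it, 0.13 without Ad CMV 3xFlag-Esrrg replicate 2, -0.15 to 0.13 over the left-out libraries), *MAOA* (0.034, 0.23 and 0.019 under these settings, -0.38 to 0.019 over the left-out libraries), *QDPR* (-0.13 with the covariate) and *ALDH2* (-0.027 with the covariate). The causes were not tested. Deviations of libraries with the same replicate number correlated at 0.075 for number 3 and -0.00010 for number 4. Between libraries of different numbers they ran from -0.13 to 0.14, so these values cannot settle whether the numbers mark pairs. Replicate numbers 1 and 2 each occur in a single group, so with the block the comparison rests on numbers 3 and 4. The block left 1 residual degree of freedom and called *GCH1* lower (-0.62) and *QDPR* higher (0.59). Over all genes, 4234 were called higher and 4117 lower. These counts were 1952 and 1982 with a 2-fold cutoff, 2207 and 1387 tested against 1.5-fold, 2200 and 7566 with library size only, where the median of all genes was -0.42, 1773 and 1323 with the covariate, and 2814 and 2468 among protein-coding genes. With library size only, the shift of the median lowers every value, and *MAOB* was still called higher. The low counts of *SLC18A1* and *DDC* limit the precision of their fall. The 5 ratios kept their direction without division by exon length and with each library left out.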
